A study of Mus musculus with 12 samples.

Results

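The genes described here encode the presynaptic vesicle and release machinery, the proteins that hold, dock, prime and fuse synaptic vesicles at the nerve terminal. They were chosen by symbol, as the protein-coding synaptotagmins (Syt), syntaxins (Stx), syntaxin-binding proteins (Stxbp), Vamp and Snap proteins, complexins (Cplx), Rims and Unc13 proteins, synapsins (Syn), Rab3 proteins, Bsn and Pclo whose normalized counts averaged 10 or more over all 12 mice. This gave 67 of the 19775 genes in the deposited table, made up of 16 synaptotagmins, 13 syntaxins, 11 Snap and Vamp proteins, 7 Stxbp proteins, 3 complexins, 10 active zone proteins, and 7 synapsins and Rab3 proteins. RNA came from the whole brains of male C57BL/6N mice at about postnatal day 120, with 4 mice of each genotype, namely wild type (WT), heterozygous Slc6a20a+/- (HT) and homozygous Slc6a20a-/- (HM). The mutant mice lacked exon 3 of Slc6a20a, a transporter of proline and glycine, on 1 allele (HT) or on both (HM). The deletion is carried in every cell and from the start of development, and the 3 genotypes were bred by crossing HT parents. Because a whole brain mixes many cell types, fewer cells of a type and less RNA per cell cannot be told apart in these values.

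At a synapse, a vesicle fuses when Vamp2 on its membrane zips together with a syntaxin such as Stx1a and with Snap25 on the plasma membrane into a SNARE complex. The Unc13 proteins guide the assembly, the complexins clamp it, and Syt1 triggers fusion when calcium enters. Rims, Bsn and Pclo build the active zone where this happens, while synapsins and Rab3 proteins act on the vesicle pool. The symbols also take in relatives that work elsewhere in the cell, such as the syntaxins of endosomes and the Golgi, and Snap91, a clathrin adaptor of vesicle endocytosis that is not a SNARE.

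RefSeq promoter windows on GRCm38.p6, which cover the 250 bases before a gene's start, were matched for 52 of the 67 genes. Those of 3 genes with higher values in HM than in WT mice are shown, with each GC box (GGGCGG, or CCGCCC on the other strand) in capitals. They are read 5′ to 3′ on the gene's strand, and the last 4 bases of the Stxbp5l window, which lie in an annotated exon, are left out.
Snap91 (chr9:86880709-86880958, minus strand): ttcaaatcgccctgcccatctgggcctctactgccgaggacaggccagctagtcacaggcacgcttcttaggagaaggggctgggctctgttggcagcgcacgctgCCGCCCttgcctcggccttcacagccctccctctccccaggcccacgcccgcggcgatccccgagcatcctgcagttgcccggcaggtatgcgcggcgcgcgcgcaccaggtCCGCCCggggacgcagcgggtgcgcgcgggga
Stxbp5l (chr16:37384963-37385208, minus strand): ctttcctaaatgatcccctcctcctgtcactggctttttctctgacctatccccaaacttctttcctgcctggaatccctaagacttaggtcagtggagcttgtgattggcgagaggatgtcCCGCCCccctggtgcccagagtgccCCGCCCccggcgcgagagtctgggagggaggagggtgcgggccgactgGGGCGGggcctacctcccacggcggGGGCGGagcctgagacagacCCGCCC
Pclo (chr5:14514668-14514917, plus strand): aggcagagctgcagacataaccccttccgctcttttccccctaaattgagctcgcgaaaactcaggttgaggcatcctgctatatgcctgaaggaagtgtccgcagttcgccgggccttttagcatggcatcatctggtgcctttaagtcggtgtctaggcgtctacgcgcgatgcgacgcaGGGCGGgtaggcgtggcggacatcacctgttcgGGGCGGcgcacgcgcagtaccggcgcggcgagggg
The windows of Snap91 and Pclo each hold 2 GC boxes and that of Stxbp5l holds 5. Among other genes with higher values in HM mice, windows of Stx6 and Syt10 hold 3, of Stxbp5 2, and of Syt6 and Rab3c 1. Those of Syn1, Syn2 and Syt1 hold 0. Some genes have several starts, so the 52 genes have 63 windows, and a gene is counted when any of its windows holds the letters. A GC box on either strand was present for 39 of the 52 genes (75%), against 35.4% of the 27025 genes of all kinds in the same table. The TATA box letters TATAAA, searched on both strands, were present for 3 of the 52 genes (5.77%) and for 14.3% of all genes. The letters CACGTG of an E-box were present in 7 (13.5%, against 6.86%), the letters CCAAT in 20 (38.5%, against 37.5%) and the letters TGACGTCA of a CRE in 2 (3.85%, against 1.77%). These are descriptions of letters in a window, without a test.

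The targeted gene followed the labels. Slc6a20a had 679.3 ± 70.1 (WT), 345 ± 29.1 (HT) and 64.5 ± 9.9 (HM) normalized counts (SD, n = 4). A normalized count is a read count per gene that the authors divided by a factor for each mouse, and 1 read was worth 0.893 to 1.121 of them. Marker lists of neurons (10 of 10 genes), astrocytes (8 of 8), oligodendrocytes (8 of 8) and microglia (8 of 8) were measured above the minimum of 10. WT replicate 1 stood apart for the active zone proteins. Its mean over these 10 genes, on the log2 scale and centred for each gene, was -0.15, against 0.0068 to 0.024 in the other WT mice. Unc13d, a gene of few reads, weighs in this mean like the others. It had 31.6 normalized counts in WT replicate 1, against 40.3 to 57.9 in the other WT mice. The counts of higher genes against WT over the 67 genes are therefore also given without WT replicate 1.

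Levels between genes were compared per kilobase of transcript. Snap25 was the most abundant of the 67 genes, with 39839 normalized counts per kilobase, the 12th rank among the protein-coding genes. Vamp2 followed at 13650.0 per kilobase, then Rab3a at 10084 and Cplx1 at 9600. Thus the vesicle SNARE and the plasma membrane SNARE of fast release stood at the top together with a vesicle GTPase and a complexin. Within the synaptotagmins the order was led by Syt1 (9416 per kilobase), Syt11 (5114), which does not bind calcium, and Syt5 (2424). Among the syntaxins Stx1a of the plasma membrane had 2946 per kilobase and the endosomal Stx12 had 1406. Of the Stxbp genes, Stxbp6 had 589.8 per kilobase and Stxbp2 had 529.7, the latter a form known from secretory cells outside the nervous system. At the active zone Unc13a (1599) and Rims3 (1590.3) were level within their spread, ahead of Bsn (1377), Rims1 (1091) and Pclo (582.1). At the low end, Syt15 (38.7 normalized counts), Unc13d (45.2) and Vamp5 (50.2) were the members nearest the minimum of 10, and Stx11 (7.75) and Stx19 (7.53) fell below it. The coefficient of variation within genotypes, pooled over the genotypes, had a median of 5.39% for the 67 genes and 7.14% for all protein-coding genes above the minimum.

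**Figure D1:**
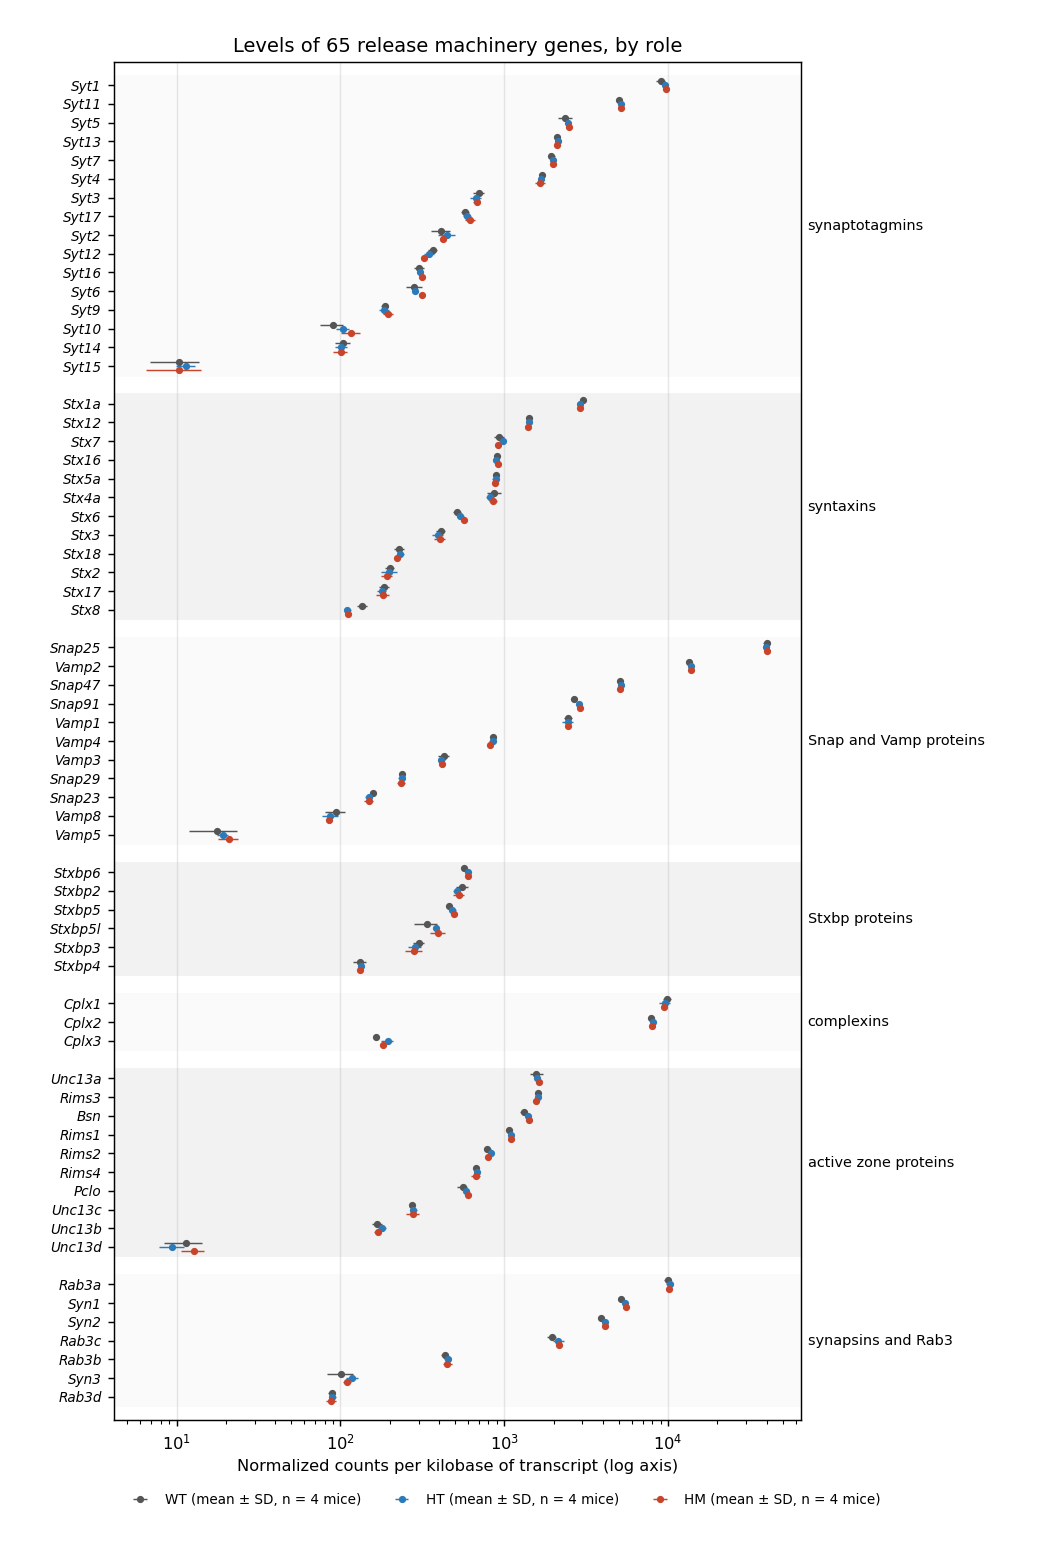
Normalized counts per kilobase of transcript (log axis) of 65 of the genes, grouped by role, with the mean and SD of 4 mice for each genotype. The levels run from 39839 for Snap25 to near 10 for Syt15 and Unc13d, and the 3 genotypes lie close together for nearly every gene.

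Each mutant genotype was compared with the same 4 WT mice, to ask whether loss of 1 or both Slc6a20a alleles goes with a change in release machinery transcripts. In HT mice, 7 of the 67 genes had higher values at an unadjusted p under 0.05 (10.4%), against 3.16% of the 18004 genes tested. Among these were Snap91, Stxbp6, Stxbp5l, Cplx3, Syn2 and Rab3c, and only Stx8 was lower (1.49%, against 3.26%). In HM mice, 13 genes had higher values (19.4%, against 3.93% of the genes tested), among them Snap91, Stxbp5, Stxbp5l, Bsn, Pclo, Syn1, Syn2, Rab3c, Syt1, Syt6, Syt10 and Stx6. Stx8 and Syt12 were lower (2.99%, against 3.05%). Without WT replicate 1 the counts of higher genes were 6 in HT and 12 in HM mice. With other mice left out, the count in HT mice was 12 without WT replicate 2, 2 without WT replicate 4, 3 without HT replicate 1 and 1 without HT replicate 4, and in HM mice it was 7 without HM replicate 4. The count of lower genes in HT mice was 3 without WT replicate 2. The count of higher genes in HT mice was 3 with mice blocked by replicate number, with quantile normalization or without a trend in limma's variance prior. In HM mice it was 8 without that trend, and 7 with mice blocked by the first digits of their animal number or with a correction for transcript length and GC content. These digits partly follow genotype. In this block HM/WT rests on HM replicates 3 and 4 and WT replicates 1 and 2, and WT replicate 1 does not bear on HT/WT. The shares of all genes in these other fits are not given, save for the length and GC correction below. None of the 67 genes passed an adjusted p of 0.05 in limma after Benjamini-Hochberg (BH) adjustment, against 0.00555% of all genes in HT and 0.0111% in HM mice. The smallest adjusted p of a member was 0.726 in HT and 0.553 in HM mice, both for Stx8 (limma, BH).

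The differences were small. The median log2 fold change of the 67 genes was 0.03 in HT and 0.02 in HM mice, where the median of all genes tested was 5.1e-05 and -2.9e-04. With a mouse left out the members' median ran from 0.02 to 0.033 in HT and from 0.0061 to 0.026 in HM mice. Quantile normalization lowered both medians, and the length and GC correction lowered that of HM mice, to the values in the last section. Values above 0 were found for 42 of the 67 genes in HT (62.7%, against 50% of all genes) and 39 in HM mice (58.2%, against 49.8%). No overlap with WT, every mutant mouse above every WT mouse, was seen for 4 genes in HT mice (5.97%, against 1.82% of all genes) and for 7 genes in HM mice (10.4%, against 2.41%). The genes were Snap91, Stxbp6, Bsn and Syn2 in HT mice, and those in HM mice included these together with Syn1 and Rab3c. Every mutant mouse lay below every WT mouse for 1 gene in HT mice (against 1.91%) and for 2 in HM mice (against 1.81%). An exact permutation test (two-sided) of 4 against 4 mice gives 0.0286 for such a gene, the smallest p it allows.

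Several of the genes named above lost the unadjusted p under 0.05 with another treatment of the values, and kept their direction. With the block by animal number these were Rab3c, Stxbp5l and Stxbp6 in HT mice (limma, unadjusted p = 0.0729 to 0.178) and Snap91, Stxbp5, Syn2, Syt1, Syt6 and Syt12 in HM mice (0.093 to 0.166). The HM/WT log2 fold change was then 0.08 for Snap91 (limma, unadjusted p = 0.1003) and -0.12 for Syt12 (limma, unadjusted p = 0.131). In this block fewer mice set each difference, as stated above. With quantile normalization they were Rab3c, Snap91 and Syn2 in HT mice (limma, unadjusted p = 0.0531 to 0.123) and Bsn, Pclo, Stxbp5, Syn2 and Syt1 in HM mice (0.0506 to 0.186). Without a trend in the prior they were Rab3c, Stxbp5l and Syn2 in HT mice (limma, unadjusted p = 0.0546 to 0.105) and Pclo, Stxbp5, Stxbp5l, Syn2, Syt1 and Syt6 in HM mice (0.0704 to 0.116). Syt1 in HM mice also lost it with a pseudocount of 10 or a minimum of 10 in every mouse (limma, unadjusted p = 0.0519 and 0.0528). A block by replicate number ended an unadjusted p under 0.05 for 5 of 25 member differences over all comparisons.

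**Figure D2:**
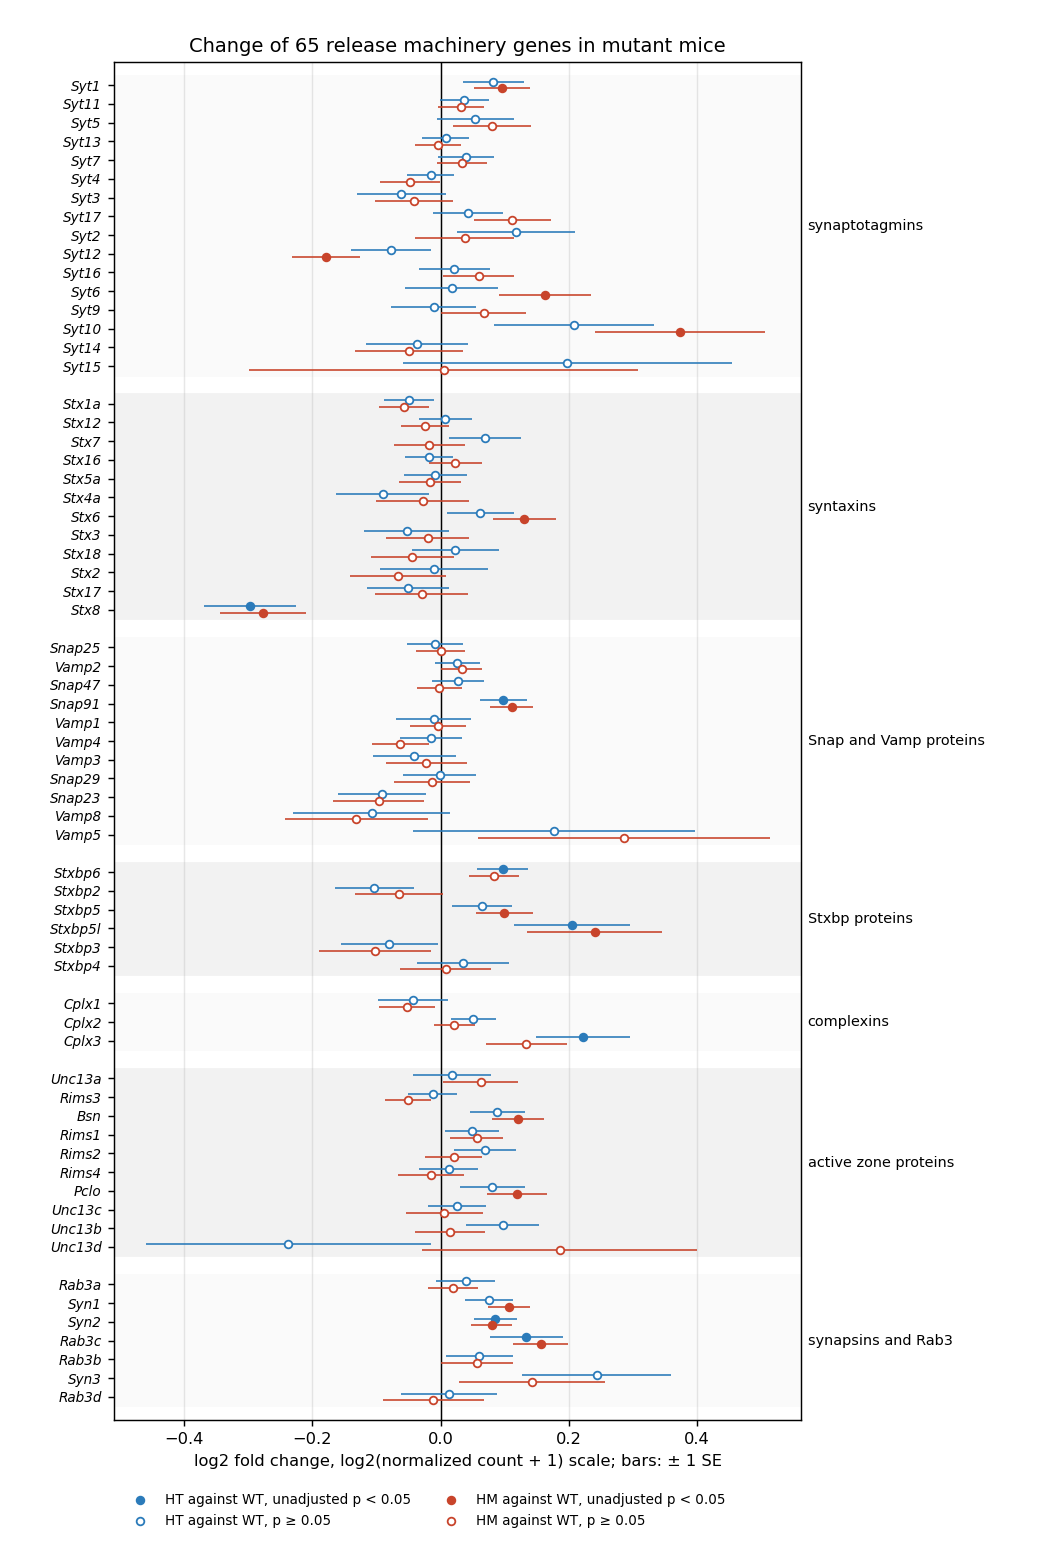
Log2 fold changes of 65 of the genes in HT and HM against WT mice, on the log2(normalized count + 1) scale, with bars of 1 standard error and filled points for an unadjusted p under 0.05. Filled points lie mostly to the right of 0, up to 0.37 for Syt10 in HM mice, while Stx8 lies near -0.3 in both genotypes.

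Among the synaptotagmins, Syt1, the calcium sensor of fast release, had 41595, 46474, 45202 and 41014 normalized counts in the 4 WT mice. The HM mice had 44909.9, 46623, 47297 and 47166, and the HT mice 43852 to 47639.5. WT replicates 1 and 4 lay below all HM mice and the other WT mice among them. HM/WT was 0.1 (SE 0.04, limma, unadjusted p = 0.047) on the log2 scale, and HT/WT was 0.08 (SE 0.05, limma, unadjusted p = 0.111). Syt1 in HM/WT had an unadjusted p of 0.0845 to 0.155 by limma (log2 fold change 0.07 to 0.09) without WT replicate 1 or 4, or without HM replicate 2, 3 or 4. Syt12, a vesicle protein that lacks calcium binding, had 1232, 1303, 1425 and 1284 normalized counts in the WT mice and 1131, 1169.8, 1172 and 1154 in the HM mice. All HM mice lay below all WT mice, while the HT mice, from 1125 to 1324, overlapped both. The HM/WT log2 fold change of Syt12 was -0.18 (SE 0.05, limma, unadjusted p = 0.00531), and HT/WT was -0.08 (SE 0.06, limma, unadjusted p = 0.235). Of its exon bases, 17.2% are shared with A930001C03Rik on the other strand, and reads of the pair may not be separable.

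Syt10, a calcium sensor known from peptide release by olfactory bulb neurons, had 135, 199, 170.2 and 159 normalized counts in WT mice and 204, 204, 192 and 258 in HM mice. Of the HM mice only replicate 3 lay below the highest WT mouse. Against WT, its log2 fold change was 0.37 (SE 0.13, limma, unadjusted p = 0.0148) for HM and 0.21 (SE 0.12, limma, unadjusted p = 0.119) for HT mice. Syt10 in HM/WT had an unadjusted p of 0.0562 by limma (log2 fold change 0.28) without HM replicate 4. Syt6 had 1418, 1099, 1179 and 1306 normalized counts in WT mice, 1276, 1188, 1270.2 and 1308 in HT mice, and 1449, 1325, 1388 and 1413 in HM mice. All HM mice lay above all HT mice, but WT replicate 1 lay among the HM mice. The HM/WT log2 fold change of Syt6 was 0.16 (SE 0.07, limma, unadjusted p = 0.043). Syt6 in HM/WT had an unadjusted p of 0.0669 to 0.148 by limma (log2 fold change 0.1 to 0.16) without WT replicate 2 or 3, or without HM replicate 1, 3 or 4. An olfactory bulb marker list also differed by genotype. Of its 11 genes, 7 were higher in HM than in WT mice at an unadjusted p under 0.05, against 3.93% of all genes, and the list's centred log2 mean ran from 0.09 to 0.64 in HM mice, from -0.38 to 0.2 in WT mice and from -0.49 to -0.16 in HT mice. The lowest of these markers, Tbx21, was measured at 3.48 to 29.6 normalized counts. The part of bulb tissue in the Syt10 and Syt6 values was not tested. Among the other synaptotagmins, Syt11 had log2 fold changes of 0.04 (HT/WT) and 0.03 (HM/WT), and Syt5 of 0.05 and 0.08, each with a 95% interval that includes 0.

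Among the syntaxins, Stx1a, which serves vesicle fusion at the plasma membrane, is given first. Stx1a had 6527 ± 223 normalized counts (WT), 6307 ± 142 (HT) and 6274 ± 219 (HM), with log2 fold changes of -0.06 in HM/WT (95% interval -0.14 to 0.03) and -0.05 in HT/WT (95% interval -0.13 to 0.03).

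Stx8, a SNARE of late endosomes, had the smallest p of the 67 genes against WT in both genotypes. It had 593, 659.5, 566 and 568 normalized counts in WT mice, 509.8, 473, 454 and 502 in HT mice, and 493, 506, 476 and 490.2 in HM mice. All mutant mice lay below all WT mice, and the mutant genotypes overlapped. Stx8 had a log2 fold change of -0.3 (SE 0.07, limma, unadjusted p = 0.00109) in HT/WT and -0.28 (SE 0.07, limma, unadjusted p = 0.00127) in HM/WT, which are changes of -18.6% and -17.5%. The gene lies at chr11:67966193-68207148 on the plus strand, and none of its exons overlaps one of another annotated gene. Stx6, a SNARE of the trans-Golgi network and endosomes, had 2227, 2392, 2535 and 2326 normalized counts in WT mice and 2634, 2488, 2709 and 2541 in HM mice. Only HM replicate 2 lay below the highest WT mouse, and the HM/WT log2 fold change was 0.13 (SE 0.05, limma, unadjusted p = 0.02). HT/WT of Stx6 was 0.06 (SE 0.05, limma, unadjusted p = 0.258). Stx6 in HM/WT had an unadjusted p of 0.0531 to 0.0604 by limma (log2 fold change 0.1 to 0.11) without WT replicate 1, or without HM replicate 3.

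For the SNAREs Snap25 and Vamp2 no difference between genotypes was detectable. Snap25 had 84486 ± 3628 normalized counts (WT), 83966 ± 3145 (HT) and 84449 ± 2038 (HM) (SD, n = 4), and the 95% interval of its HM/WT log2 fold change ran from -0.08 to 0.08. Vamp2 had 29697 ± 719 (WT), 30229.7 ± 565 (HT) and 30368 ± 479 (HM), with an HM/WT interval from -0.04 to 0.1. Snap47 had log2 fold changes of 0.03 (HT/WT) and -0.0022 (HM/WT). Only Snap91 among the 11 Snap and Vamp genes had an unadjusted p under 0.05, where 3.16% (HT) and 3.93% (HM) of all genes tested were higher. This endocytic adaptor had 11824, 12077, 11299 and 11329.6 normalized counts in WT mice, 12639.7, 12174, 12352 and 12617 in HT mice, and 12520.1, 12511, 12642 and 12548 in HM mice. All mutant mice lay above all WT mice. Its log2 fold change was 0.1 (SE 0.04, limma, unadjusted p = 0.0192) in HT/WT and 0.11 (SE 0.03, limma, unadjusted p = 0.00622) in HM/WT. Snap91 in HT/WT had an unadjusted p of 0.0526 to 0.0618 by limma (log2 fold change 0.08 to 0.09) without WT replicate 3 or 4, or without HT replicate 4.

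Of the Stxbp genes, the tomosyns Stxbp5 and Stxbp5l, which hold back SNARE assembly, are given first. Stxbp5 had 3895, 4159, 4269.8 and 3942 normalized counts in WT mice and 4113, 4537, 4428 and 4342 in HM mice. Only HM replicate 1 lay within the WT range, and the HM/WT log2 fold change was 0.1 (SE 0.04, limma, unadjusted p = 0.0456). Stxbp5 in HM/WT had an unadjusted p of 0.0732 to 0.134 by limma (log2 fold change 0.08 to 0.1) without WT replicate 1 or 4, or without HM replicate 2, 3 or 4. Stxbp5l had 1181, 1684, 1642 and 1401 normalized counts in WT mice, 1732, 1627, 1667 and 1718 in HT mice, and 1532, 1724, 1697 and 1986 in HM mice. WT replicate 1 was the lowest of the 12 mice. For Stxbp5l, HT/WT was 0.2 (SE 0.09, limma, unadjusted p = 0.042) and HM/WT 0.24 (SE 0.11, limma, unadjusted p = 0.0403) on the log2 scale. Stxbp5l in HT/WT had an unadjusted p of 0.0505 to 0.135 by limma (log2 fold change 0.1 to 0.22) without WT replicate 1 or 4, or without HT replicate 1, 2, 3 or 4. Stxbp5l in HM/WT had an unadjusted p of 0.0587 to 0.139 by limma (log2 fold change 0.14 to 0.25) without WT replicate 1 or 4, or without HM replicate 2, 3 or 4. Stxbp6, also called amisyn, had 2519 to 2622 normalized counts in WT mice, 2696 to 2845 in HT mice and 2643 to 2799 in HM mice, so that no mutant mouse overlapped WT. Its HT/WT log2 fold change was 0.1 (SE 0.04, limma, unadjusted p = 0.0302) and its HM/WT value 0.08 (SE 0.04, limma, unadjusted p = 0.0529). Stxbp6 in HT/WT had an unadjusted p of 0.0535 to 0.0843 by limma (log2 fold change 0.08 to 0.1) without WT replicate 1 or 4, or without HT replicate 1 or 4.

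Among the complexins, the abundant Cplx1 had log2 fold changes of -0.04 in HT/WT (95% interval -0.16 to 0.07) and -0.05 in HM/WT (-0.15 to 0.04), and Cplx2 of 0.05 (-0.02 to 0.13) and 0.02 (-0.05 to 0.09). Cplx3, a rarer form known from retinal ribbon synapses, had 496, 478, 452 and 471 normalized counts in WT mice, 573, 555, 491 and 599 in HT mice, and 495, 534, 517 and 535 in HM mice. HT replicate 3 and HM replicate 1 lay just below the highest WT mouse and the other mutant mice above it. The HT/WT log2 fold change of Cplx3 was 0.22 (SE 0.07, limma, unadjusted p = 0.00989), and the HM/WT one 0.13 (SE 0.06, limma, unadjusted p = 0.0564).

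At the active zone, the large scaffolds Bsn and Pclo were the only genes of 10 with an unadjusted p under 0.05 against WT. Both were higher in HM mice, as were 3.93% of all genes tested. Bsn had 19310.4, 21685, 21044 and 21588 normalized counts in WT mice, 21831, 21789, 22234 and 22986 in HT mice, and 22835, 23432, 22380.5 and 22188 in HM mice. All mutant mice lay above all WT mice, with the highest WT and lowest HT mice close together. Bsn had a log2 fold change of 0.12 (SE 0.04, limma, unadjusted p = 0.0119) in HM/WT and 0.09 (SE 0.04, limma, unadjusted p = 0.059) in HT/WT. Without WT replicate 1, HM/WT was 0.08 (limma, unadjusted p = 0.0195). Pclo had 10214, 12041, 11509.9 and 10918 normalized counts in WT mice and 11974, 11808, 12299 and 12347 in HM mice. HM replicates 1 and 2 lay below the highest WT mouse. The HM/WT log2 fold change of Pclo was 0.12 (SE 0.05, limma, unadjusted p = 0.0263). Pclo in HM/WT had an unadjusted p of 0.0587 to 0.0676 by limma (log2 fold change 0.08 to 0.11) without WT replicate 1 or 4, or without HM replicate 3 or 4. The priming and docking genes Unc13a, Rims1 and Rims3 had HM/WT log2 fold changes of 0.06, 0.06 and -0.05 and HT/WT ones of 0.02, 0.05 and -0.01, each with a 95% interval that includes 0.

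Of the 7 synapsin and Rab3 genes, 3 were higher in HM mice at an unadjusted p under 0.05, against 3.93% of all genes. Syn1, which tethers vesicles in the reserve pool, had 16778, 16825, 17199 and 16343 normalized counts in WT mice, 17330.0, 17042, 18010.4 and 18414 in HT mice, and 17783, 18384, 17749.8 and 18386 in HM mice. All HM mice lay above all WT mice, and HT replicate 2 lay within the WT range. For Syn1, HM/WT was 0.11 (SE 0.03, limma, unadjusted p = 0.00586) and HT/WT 0.08 (SE 0.04, limma, unadjusted p = 0.0631) on the log2 scale. Its relative Syn2 had 14698 to 15244 normalized counts in WT mice, 15714 to 16192 in HT mice and 15496 to 16201 in HM mice, with no overlap between WT and either mutant. Syn2 had log2 fold changes of 0.08 (SE 0.03, limma, unadjusted p = 0.0252) in HT/WT and 0.08 (SE 0.03, limma, unadjusted p = 0.0279) in HM/WT. Syn2 in HT/WT had an unadjusted p of 0.0504 to 0.0712 by limma (log2 fold change 0.08 to 0.09) without WT replicate 2 or 4, or without HT replicate 3 or 4. Syn2 in HM/WT had an unadjusted p of 0.062 to 0.089 by limma (log2 fold change 0.07 to 0.08) without WT replicate 2 or 4, or without HM replicate 1 or 2. Rab3c, a vesicle GTPase, had 15253, 17467, 17146 and 15995 normalized counts in WT mice, 19842, 17939.6, 16553 and 17956 in HT mice, and 18274, 18518, 18409 and 18063 in HM mice. All HM mice and 3 of the HT mice lay above all WT mice. The HM/WT log2 fold change of Rab3c was 0.16 (SE 0.04, limma, unadjusted p = 0.00315), and HT/WT was 0.13 (SE 0.06, limma, unadjusted p = 0.0351). Rab3c in HT/WT had an unadjusted p of 0.0537 to 0.13 by limma (log2 fold change 0.09 to 0.14) without WT replicate 1 or 4, or without HT replicate 1, 2 or 4. Rab3a, the most abundant of the family, had log2 fold changes of 0.04 in HT/WT (95% interval -0.06 to 0.14) and 0.02 in HM/WT (-0.07 to 0.1).

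**Figure D3:**
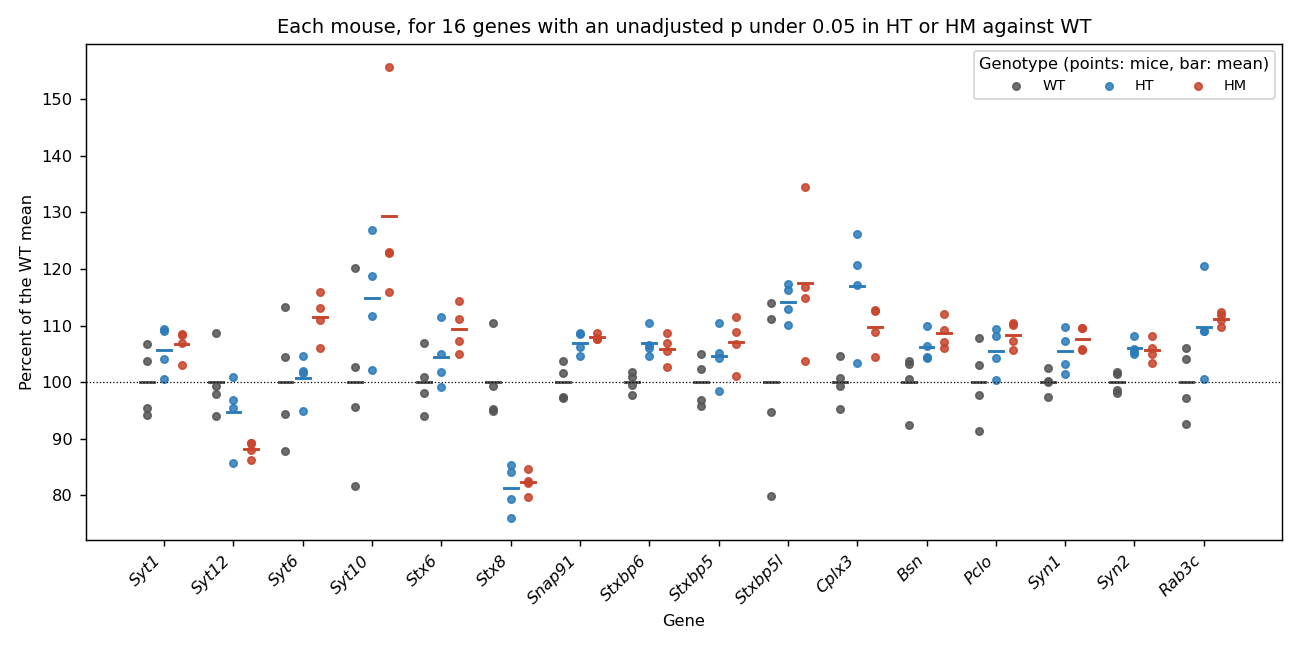
Normalized counts of each mouse as percent of the WT mean, for 16 genes with an unadjusted p under 0.05 in HT or HM mice; bars are means of 4 mice. Both mutant groups of Stx8 lie below all WT mice, and those of Snap91, Stxbp6, Bsn and Syn2 above them.

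Averaged by role, the mean centred log2 value of the 7 synapsin and Rab3 genes was -0.06 ± 0.05 (WT), 0.04 ± 0.05 (HT) and 0.02 ± 0.01 (HM) (SD, n = 4). The 16 synaptotagmins had -0.03 ± 0.0057 (WT), 0.01 ± 0.04 (HT) and 0.02 ± 0.03 (HM), and the 4 WT mice, at -0.03 to -0.02, lay below all HM mice. The 13 syntaxins had 0.02 ± 0.02 (WT), -0.0086 ± 0.02 (HT) and -0.008 ± 0.02 (HM), and 10 of them had a log2 fold change below 0 in HM mice. Of all genes tested 49.8% had one above 0, and only Stx8 among the syntaxins was lower at an unadjusted p under 0.05 (limma). The active zone proteins had -0.02 ± 0.08 in WT and 0.03 ± 0.02 in HM mice, and this WT mean includes the low WT replicate 1. Of the 67 genes, 29 are on a hand-written list of core release genes and 38 are not. In HM mice 7 core genes and 6 others were higher at an unadjusted p under 0.05, against 3.93% of all genes, with median log2 fold changes of 0.04 and -0.02 over the 29 and the 38 genes.

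**Figure D4:**
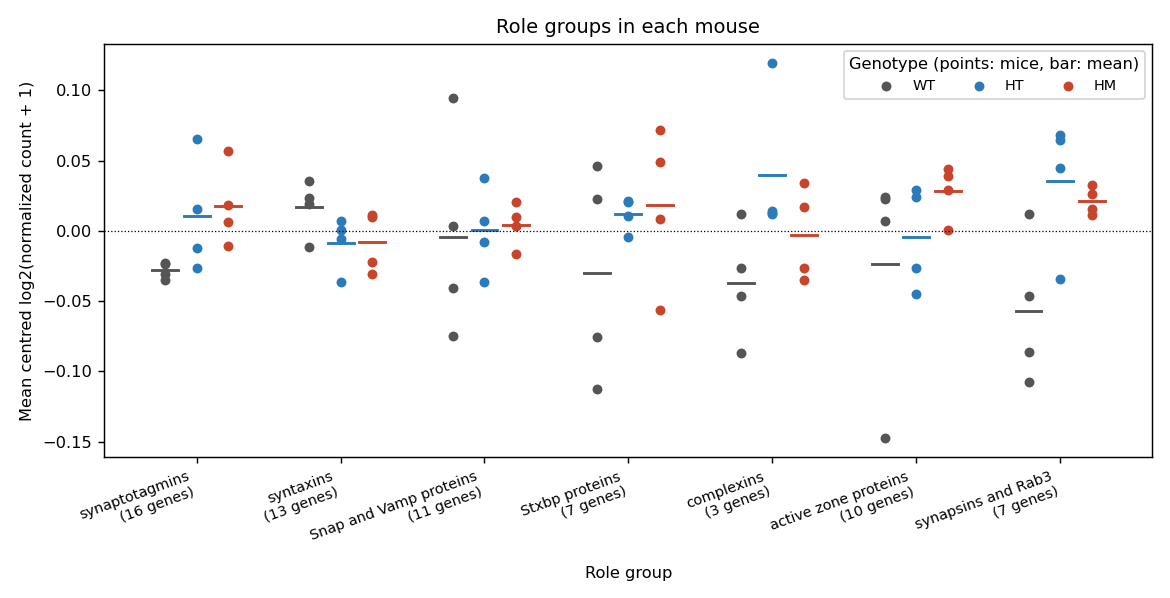
Mean centred log2(normalized count + 1) of each role group in every mouse, with bars for the mean of 4 mice per genotype. WT synapsins and Rab3 lie mostly below the mutant mice, WT replicate 1 is low for the active zone proteins at -0.15, and HT replicate 4 is high for the complexins at 0.12.

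The HM and HT mice were also compared directly. Of the 67 genes, Unc13d and Syt6 were higher in HM mice at an unadjusted p under 0.05 (2.99%, against 2.11% of 17986 genes), 0 were lower (against 1.62%), and 0 passed an adjusted p of 0.05 in limma (against 0.00556%). For Syt6, with the values given above, the genotypes did not overlap (1.24% of all genes) and HM/HT was 0.15 (SE 0.05, limma, unadjusted p = 0.00962) on the log2 scale. Its neighbour in the annotation, Atg4a-ps on the other strand, shares 8.67% of its exon bases. Unc13d, known for granule release in blood cells, had 45.4, 30.4, 35.9 and 40.9 normalized counts in HT mice and 63.4, 49.8, 44.2 and 48.2 in HM mice, where few reads set each value. Only HM replicate 3 lay below the highest HT mouse. HM/HT of Unc13d was 0.42 (SE 0.19, limma, unadjusted p = 0.0422). Unc13d in HM/HT had an unadjusted p of 0.0545 to 0.135 by limma (log2 fold change 0.32 to 0.45) without HT replicate 2 or 3, or without HM replicate 1, 2 or 4. Unc13d also lost an unadjusted p under 0.05 with quantile normalization or in a fit of all 12 mice. With the animal-number block HM/HT rests on HM replicate 4 alone against HT replicates 1 and 2, so no p is given for it. Erythrocyte markers moved with Unc13d, since all 4 of a list of globin genes, near-identical copies among which reads may be split, had higher values in HM than in HT mice at an unadjusted p under 0.05. Their log2 fold changes were 1.03 for Hba-a1, 0.97 for Hba-a2, 0.94 for Hbb-bs and 1.11 for Hbb-bt (limma, unadjusted p = 0.00805, 0.0146, 0.0235 and 0.0116). Against WT the 4 globin genes had log2 fold changes of -0.95 to -0.7 in HT mice (limma, unadjusted p = 6.4e-04 to 0.0062). In HM mice these were 0.08 to 0.33 (limma, unadjusted p = 0.389 to 0.851). The list's centred log2 mean ran from -0.77 to -0.39 in HT and from -0.92 to 1.42 in HM mice, and the part of blood in the Unc13d values was not tested. The median log2 fold change of the 67 genes was -0.005.

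The higher genes were mostly those with long transcripts. Among the 34 members with transcripts of at least the median of 3854 bases, 11 were higher in HM mice at an unadjusted p under 0.05 (32.4%), against 8.02% of protein-coding genes of such length. Among the 33 shorter members 2 were higher (6.06%, against 2.11%). In HT mice the counts were 6 of 34 (17.6%, against 7%) and 1 of 33 (3.03%, against 1.41%). Over the members, which share libraries and normalization, Spearman's rho between transcript length and log2 fold change was 0.32 in both mutant genotypes, and over all protein-coding genes 0.28 in each. With each mouse corrected for length and GC content, the members' rho was 0.0062 in HT and 0.021 in HM mice, and the counts of higher genes were 7 in HT and 7 in HM mice. In each genotype 5 of the 34 longer members were then higher (14.7%), against 4.14% (HT) and 4.52% (HM) of protein-coding genes of such length. Of the 33 shorter members 2 were higher in each (6.06%), against 2.62% (HT) and 2.66% (HM). The values of Bsn, Pclo, Stxbp5, Syn2, Syt1 and Syt6 in HM mice no longer had an unadjusted p under 0.05 then. The HM/WT log2 fold change went from 0.12 to 0.06 for Bsn, from 0.12 to 0.04 for Pclo and from 0.1 to 0.06 for Stxbp5. For Syn2 it went from 0.08 to 0.07, for Syt1 from 0.1 to 0.08 and for Syt6 from 0.16 to 0.15. The long members had a centred log2 mean of -0.11 in WT replicate 1, against -0.04 to 0.04 in the other 11 mice. The part of transcript length in the fold changes beyond this correction was not tested.

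Since the release genes are well expressed, they were also set against genes of like level. Of the 49 members averaging at least 1000 normalized counts, 12 were higher in HM mice (24.5%) and 6 in HT mice (12.2%), against 6.8% and 5.44% of protein-coding genes above that level. Restricted further to longer transcripts, the counts were 11 of 28 in HM (39.3%, against 10.4%) and 6 of 28 in HT mice (21.4%, against 8.92%).

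**Figure D5:**
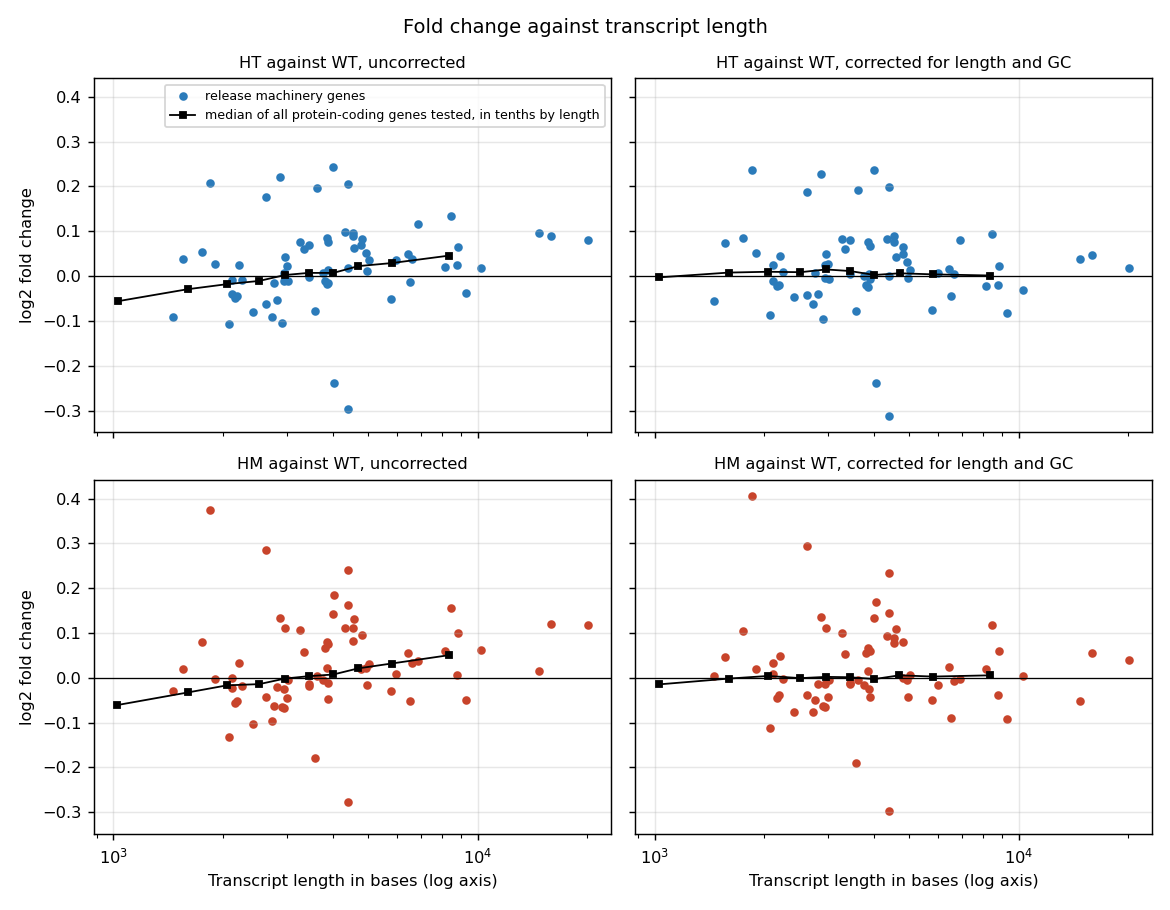
Log2 fold change against transcript length in bases (log axis) for the 67 genes (points), with the median of protein-coding genes in 10 bins of length (black line), for HT and HM against WT mice, without and with a correction of each mouse for length and GC content. The black line climbs from about -0.06 for the shortest bin to about 0.05 for the longest before the correction and lies near 0 after it.

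Other genes of the presynaptic pathway, from lists written by hand, are given by count. Of all genes tested, 3.16% were higher and 3.26% lower in HT mice, and 3.93% higher and 3.05% lower in HM mice, and each count stands beside these shares. Of 20 vesicle membrane genes, 2 were higher and 0 lower in both HT and HM mice at an unadjusted p under 0.05. The vesicle glycoprotein Sv2c had 2641 (WT), 3007 (HT) and 2950.4 (HM) normalized counts, with log2 fold changes of 0.19 and 0.16 (limma, unadjusted p = 0.00923 and 0.0227). Slc17a6, a vesicular glutamate transporter, had log2 fold changes of 0.09 and -0.02 against WT and was lower in HM than in HT mice (limma, unadjusted p = 0.0193). Of 25 genes for priming, docking and SNARE recycling, 1 was higher and 2 lower in HT mice, and 3 higher and 0 lower in HM mice. The active zone scaffold Erc1 had log2 fold changes of 0.1 in HT and 0.16 in HM mice (limma, unadjusted p = 0.0943 and 0.00364), and Apba2 of 0.06 and 0.1 (limma, unadjusted p = 0.178 and 0.0159). Of 24 endocytosis genes, 0 were higher and 1 lower in HT mice, and 2 were higher and 2 lower in HM mice. The endophilin Sh3gl1 had log2 fold changes of -0.12 and -0.14 (limma, unadjusted p = 0.0341 and 0.0165), and the adaptor subunit Ap2a2 of 0.08 and 0.1 (unadjusted p = 0.064 and 0.0209). None of these genes passed an adjusted p of 0.05 in limma. The list of 10 neuron markers had 0 genes (HT) and 1 gene (HM) past an unadjusted p of 0.05 in limma, and its centred log2 mean lay between -0.05 and 0.07 in all mice. By genotype the list's mean was -0.018 (WT), 0.0093 (HT) and 0.0086 (HM), and that of all 67 members -0.018, 0.0069 and 0.012. The part of neuron content in the members' values was not tested.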

How the data were processed

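The authors sequenced poly-A RNA of each whole brain from both ends for 100 bases with TruSeq libraries, estimated transcript abundance with Salmon 1.1.0 on GRCm38 with GC bias correction, summed it to genes with tximport and normalized it with DESeq2 1.30.1. The deposited table holds this signal, normalized counts for 19775 genes in 12 mice. At most 13.5% of low values were whole multiples of a read (tolerance 0.01 reads), so reads were not recovered and no count model was fitted. The sums per mouse, 33284951 to 33748623, were equalized by the normalization and do not show depth. From the worth of 1 read, depth was about 2.99e+07 to 3.73e+07 reads on genes.

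Each pair of genotypes was tested with limma (3.58.1, under R 4.3.3) on log2-transformed values (pseudocount 1), using a mean-dependent prior for the variance. Genes entered when their mean over the 8 mice reached 10. A fold change on this scale understates the change of low genes. P-values were adjusted by the BH method over all genes tested, with a threshold of 0.05, and members are also described by an unadjusted p under 0.05. The test was also run on simulated data with independent noise for each gene. Shifts shared by genes and outlying mice were not simulated. Symbols, positions, transcript lengths, GC content and exon overlaps came from GENCODE M21 (GRCm38), in which 19758 gene identifiers matched. Further steps used Python 3.11.15, numpy 2.4.6, scipy 1.17.1, pandas 2.3.3 and matplotlib 3.10.9. Whether strands were told apart in the counting is not given in the sources used here, and 19 of the 67 members have exons that overlap another gene's, so those values may include its reads. Cplx4, Syt8 and Vamp9 also match the symbols and were not analysed here. Of the 67 members, 2 enter the fits and the counts but are not reported by name here.

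The members and lists were chosen with earlier results of these data known. Named members had an unadjusted p under 0.05 in any comparison, were among the 3 highest per kilobase of their role group, belonged to 15 release genes listed by hand, or lay nearest the minimum of 10. From each pathway list the 2 genes with the smallest p are named. Mice are separate animals of a genotype, and Slc6a20a+/- and Slc6a20a-/- mice were each compared with the same WT mice. Same-numbered mice showed no strong shared deviation (correlations of -0.07 to 0.09 over 12 pairs, 0 above 0.1). This does not show whether they were handled together, and the main fits treat them as unpaired. Alternatives were pseudocounts of 0.1 and 10, other filters on low values, a joint fit of the 12 mice, blocks by replicate number and by the first digits of the animal number in the column headers, quantile normalization, a length and GC correction by loess (span 0.4), a prior without trend, and leaving out each mouse. What the first digits of the animal number stand for is not given in the sources used here, and they partly follow genotype.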

Additional observations from a re-analysis of the deposited data

Results flagged for a closer look

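In each genotype's 4 mice, a mouse far from the other 3 was looked for by Dixon's criterion over 129 groups of values of members, role groups and lists. The criterion met 3, and chance alone gives about 1 in 20.

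For the active zone proteins, WT replicate 1 had a centred log2 mean of -0.148, against 0.0068 to 0.024 in the other WT mice. Unc13d, a gene of few reads, enters this mean. For the complexins, HT replicate 4 had 0.12, against 0.012 to 0.014 in the other HT mice. Stxbp2 had 1717 normalized counts in HM replicate 3, against 1449 to 1491 in the other HM mice.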

How the results depend on the processing

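No member passed an adjusted p of 0.05 under any alternative run, each mouse left out in turn included. Each of the 25 member differences at an unadjusted p under 0.05 kept its direction in all of its 18 alternatives, and 6 kept that p in all of them (Stx8 in HT and HM, Cplx3 in HT, Rab3c and Syn1 in HM, and Syt6 in HM against HT mice). The count of higher members in HT mice, 7, was 3 with the replicate block, with quantile normalization or without a trend in the prior, and 1 to 12 with a mouse left out (12 without WT replicate 2, 2 without WT replicate 4, 3 without HT replicate 1, 1 without HT replicate 4). The count of lower members in HT mice was 1 to 3 (3 without WT replicate 2). In HM mice the 13 higher members were 7 with the animal-number block or the length and GC correction, 8 without a trend, and 7 to 14 with a mouse left out (7 without HM replicate 4). The 2 lower members in HM mice were 2 without any 1 mouse. In HM against HT mice the higher count, 2, was 1 in a fit of all 12 mice or with quantile normalization. It was 1 to 3 with a mouse left out (1 without HT replicate 2 or 3 or HM replicate 1, 2 or 4, and 3 without HT replicate 1 or HM replicate 3). The lower count, 0, was 2 with the length and GC correction, and 0 to 3 with a mouse left out (3 without HT replicate 3). With the animal-number block this comparison rests on HM replicate 4 alone against HT replicates 1 and 2, so its counts are not given. The members' median log2 fold change in HT mice was 0.0084 with quantile normalization and 0.02 to 0.033 with a mouse left out. In HM mice it was 0.0021 with quantile normalization, 0.0033 with the length and GC correction and 0.0061 to 0.026 with a mouse left out, and in HM against HT mice -0.0059 to 0.01. The replicate block moved no count in HM against WT or HM against HT mice by over 1.5 times. The causes of these moves were not tested. Count models were not run, since the table holds normalized values.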
